A study of Mus musculus with 6 samples.

Results

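The genes for the Janus kinases (JAKs) and for the interferon receptor chains were followed in N18-Fms cells stimulated with CSF-1. The set consists of Jak1, Jak2, Jak3 and Tyk2, and of Ifnar1, Ifnar2, Ifngr1 and Ifngr2, chosen by name, and all 8 were found among the 36163 gene names on the arrays. N18 is a single luciferase-expressing clone of the C2H tumor line, which comes from a prostate tumor of a TRAMP mouse, and N18-Fms is its derivative transduced with a retrovirus for murine c-fms, the CSF-1 receptor, and sorted for it, so the cells of every group carry the receptor and the luciferase. Cells were left unstimulated or received recombinant mouse CSF-1 at 100 ng/mL for 24 h or 48 h, with 2 arrays in each of the 3 groups, and the labelled times are used although the methods of the study name shorter ones. The parental cells secrete CSF-1 of their own, so that unstimulated means without added CSF-1. The RNA came from independent experiments, and p-values measure the spread between the arrays of a group.

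JAKs are cytoplasmic tyrosine kinases that sit on the inner part of cytokine receptors lacking a kinase of their own. Type I interferons (interferon alpha and beta) bind a receptor made of Ifnar1 and Ifnar2, which carry Tyk2 and Jak1, and type II interferon (interferon gamma) binds one made of Ifngr1 and Ifngr2, which carry Jak1 and Jak2. The kinases phosphorylate STAT transcription factors, which then bind DNA at GAS elements or, joined to Irf9, at interferon-stimulated response elements (ISREs). Jak3 works with the common gamma chain of interleukin receptors and is best known from lymphocytes. The CSF-1 receptor is itself a tyrosine kinase.

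Each array had 59305 spots other than controls, of which 58.7% to 72.0% were well above background, and 0 were saturated. Csf1r, the transduced gene, had levels between 4.88 and 5.34 on the 6 arrays, where a level is the log2 of a probe's signal minus that of the array's 75th percentile, and it did not pass the test at 24 h (0.22, adjusted p = 0.367) or at 48 h (-0.07, adjusted p = 0.793). The 24 h replicate 1 array lay on another slide, scanned separately, than the other 5. Levels of different genes come from different probes and are not ranked against each other.

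The 8 genes were represented by 11 probes of 60 bases, 6 genes by 1 probe, Jak3 by 2 and Ifnar1 by 3, and all 11 were well above background on all 6 arrays. Their positions, given in the files for mouse genome build mm9, are chr4:100825094-100825153 for Jak1, chr19:29387487-29387546 for Jak2, chr9:20909321-20909380 for Tyk2, chr16:91394044-91394103 for Ifnar2, chr10:19329923-19329982 for Ifngr1 and chr16:91563982-91564041 for Ifngr2. The brighter Jak3 probe, A_55_P2010912, lies at chr8:74210801-74210860 and is listed for both Jak3 transcripts, NM_001190830 and NM_010589. The other, A_51_P355360, lies at chr8:74214085-74214144 and is also listed for NM_013564, the transcript of Insl3, which in the RefSeq annotation of build GRCm38.p6 lies inside the end of Jak3, so that the signal of this probe cannot be assigned to one of these genes. The 3 Ifnar1 probes lie at chr16:91503764-91505350, a span of 1587 bases for a probe of 60, at chr16:91506635-91506693 and, for the brightest, A_55_P2036337, at chr16:91510673-91510732. Whether the probes fall in coding or untranslated parts of exons was not analysed here. The sequences of 3 probes follow, those of Jak3, of the receptor chain that came closest to the threshold, and of the Ifnar1 probe with the long span.
Jak3, A_55_P2010912: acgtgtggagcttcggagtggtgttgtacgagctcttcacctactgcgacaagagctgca
Ifnar2, A_52_P190405: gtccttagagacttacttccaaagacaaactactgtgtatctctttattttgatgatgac
Ifnar1, A_55_P2438722: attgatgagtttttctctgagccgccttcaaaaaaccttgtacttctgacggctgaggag

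After stimulation with CSF-1, 2 of the 4 kinase genes, Jak2 and Jak3, were upregulated and 1 of the 4 receptor genes, Ifngr1, was downregulated, at both times. Thus 3 of the 8 genes passed an adjusted p of 0.05 at 24 h, against 14.0% of the 24648 genes tested, and 3 of 8 at 48 h, against 14.0% of them. In the upward direction 2 of 8 passed at each time, beside 8.02% of all genes at 24 h and 6.58% at 48 h, and in the downward direction 1 of 8 passed, beside 5.99% and 7.38%. Without 24 h replicate 1, the array on its own slide, 2 of 8 passed at 24 h, beside 4.56% of all genes, and 3 at 48 h, beside 7.73%. With all 6 arrays, the 3 genes were the same at both times, and 8.95% of all genes passed in the same direction at both. The arrays of stimulated and unstimulated cells were fully apart for 7 of 8 genes at each time, all but Tyk2 at 24 h and all but Jak1 at 48 h, beside 59.0% and 58.8% of all genes. The unstimulated arrays are shared by both comparisons, so that the changes at the 2 times are not independent of each other. With groups of 2 arrays an exact test cannot give a p-value below 0.333, and the calls rest on the spread that limma pools over all genes.

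**Figure D1:**
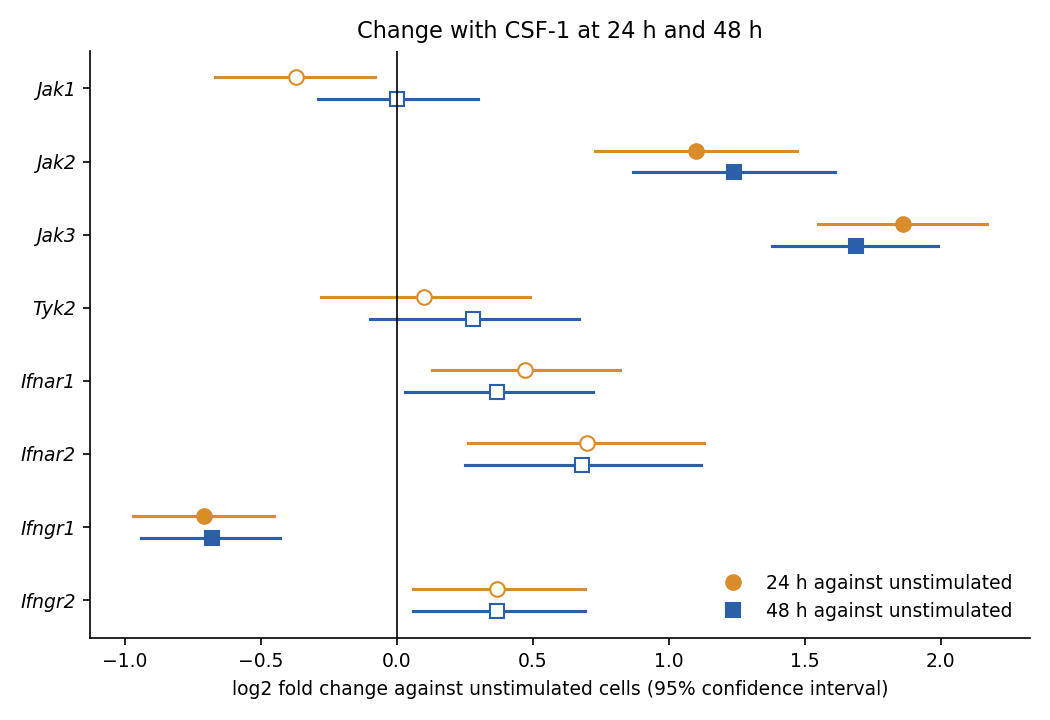
Log2 fold change of each gene after 24 h (circles) and 48 h (squares) of CSF-1 against unstimulated cells, with 95% confidence intervals from limma. Filled symbols have an adjusted p under 0.05, which holds for Jak2, Jak3 and Ifngr1 at both times, with Jak3 farthest to the right at 1.86 and 1.69 and Ifngr1 on the left at -0.71 and -0.68.

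Jak3 had the largest log2 fold change of the 8 genes at both times in the scaling used here. Its level was -2.96 and -2.79 on the unstimulated arrays, -1.01 and -1.03 at 24 h, and -1.26 and -1.12 at 48 h. All 4 stimulated arrays lay above both unstimulated ones. Jak3 rose 3.63-fold at 24 h (log2 fold change 1.86 ± 0.12 SE, adjusted p = 0.00248) and 3.22-fold at 48 h (1.69 ± 0.12, adjusted p = 0.0024). As spot signals, these were 70.6 and 88.3 units in unstimulated cells, 285 and 293 at 24 h, and 230 and 278 at 48 h, the dimmest group being still well above background. Normexp background correction handles the background of dim probes differently, and here it added 50 units to every signal. A constant of this kind lowers the fold changes of dim probes more than those of bright ones. After the correction the log2 fold changes were smaller, at 1.27 and 1.13 with the 75th percentile shift and 1.19 and 1.07 with quantile normalization. All 4 of these values passed. In those fits Jak2 had 1.06 and 1.22, and 1.15 and 1.29, so that at 48 h its value was above that of Jak3. The probe shared with Insl3 moved the same way. Its signal was 63.4 and 64.4 on the unstimulated arrays, 182 and 140 after 24 h, and 135 and 167 after 48 h, and its log2 fold changes were 1.31 (adjusted p over all probes = 0.0148) and 1.24 (adjusted p over all probes = 0.0186) with limma.

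**Figure D2:**
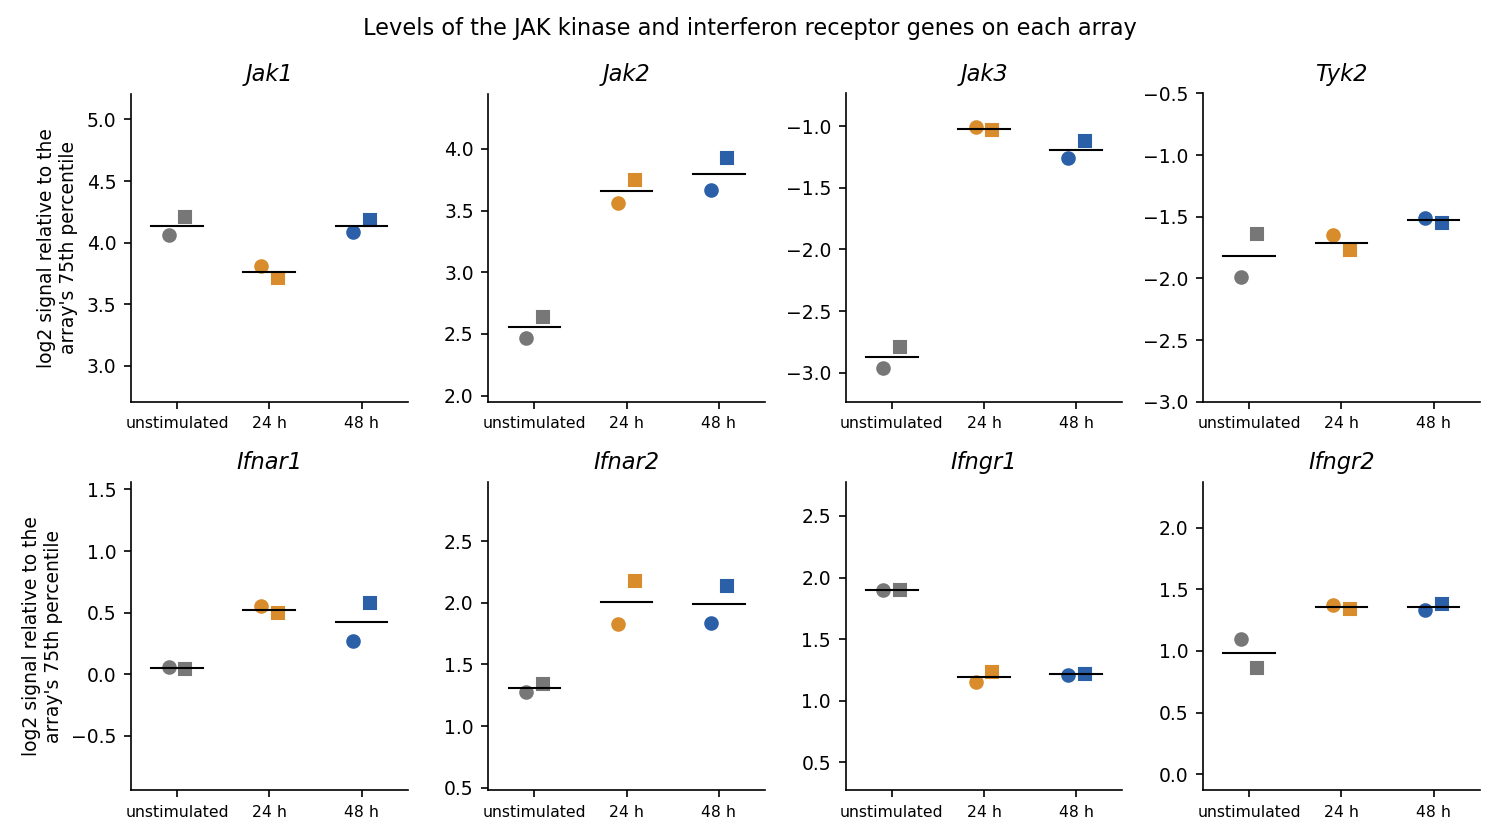
Level of each gene on each array, as log2 signal over the 75th percentile of that array, for unstimulated cells and cells stimulated for 24 h or 48 h. Circles are replicate 1, squares replicate 2 and lines the mean of the 2 arrays, and every panel spans 2.5 log2 units. Jak2 and Jak3 step up, Ifngr1 steps down from 1.90 to between 1.15 and 1.23, and Jak1 dips at 24 h alone.

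Jak2, the kinase of the interferon gamma receptor and of many hormone and growth factor receptors, was the other kinase gene to rise. Its level was 2.47 and 2.64 in unstimulated cells, rising to 3.56 and 3.75 after 24 h and 3.67 and 3.93 after 48 h, with no overlap between stimulated and unstimulated arrays. The increase was 2.14-fold at 24 h (1.1 ± 0.15, adjusted p = 0.0121) and 2.36-fold at 48 h (1.24 ± 0.15, adjusted p = 0.00921). The call was lost when some arrays were left out, while the size of the change held. At 24 h the log2 fold change was 1.01 (adjusted p = 0.0687) without unstimulated replicate 1, 1.18 (adjusted p = 0.0683) without unstimulated replicate 2 and 1.0 (adjusted p = 0.0867) without 24 h replicate 2. At 48 h it was 1.15 (adjusted p = 0.0637) and 1.33 (adjusted p = 0.0571) without unstimulated replicate 1 or 2, and 1.37 (adjusted p = 0.0562) and 1.12 (adjusted p = 0.0512) without 48 h replicate 1 or 2. Jak3 passed with any one array left out.

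Neither kinase of the interferon alpha and beta receptor passed the test. Jak1, shared by both kinds of interferon receptor, had levels of 4.06 and 4.21 in unstimulated cells, 3.81 and 3.71 at 24 h, and 4.09 and 4.18 at 48 h. Both 24 h arrays lay below the other 4, whereas the 48 h arrays lay between the unstimulated ones. Its log2 fold change was -0.37 at 24 h (95% interval -0.67 to -0.08, adjusted p = 0.098) and 0.00 at 48 h (-0.29 to 0.30, adjusted p = 0.993). Tyk2 stood at -1.99 and -1.64 without added CSF-1, at -1.65 and -1.77 after 24 h, and at -1.51 and -1.55 after 48 h. The 24 h arrays overlapped the unstimulated ones, and the log2 fold changes were 0.10 (-0.28 to 0.49, adjusted p = 0.699) and 0.28 (-0.10 to 0.67, adjusted p = 0.276). With the arrays centred on their medians instead, Jak1 fell by 0.66 at 24 h (adjusted p = 0.0369) and Tyk2 had -0.18 there. In the scaling used here the intervals leave out a doubling or a halving of either gene at either time.

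Among the receptor genes, Ifngr1 was downregulated. This chain binds interferon gamma and carries Jak1. Its level was 1.90 on both unstimulated arrays, 1.15 and 1.23 at 24 h, and 1.21 and 1.22 at 48 h, so that each stimulated array was lower than each unstimulated one. It fell 1.64-fold at 24 h (-0.71 ± 0.10, adjusted p = 0.015) and 1.61-fold at 48 h (-0.68 ± 0.10, adjusted p = 0.0172). The change kept its direction in every alternative, but the call was lost when arrays were left out. At 24 h it passed only without 48 h replicate 2, and the other 5 omissions gave adjusted p-values of 0.0719, 0.0887, 0.0822, 0.0861 and 0.0588 (unstimulated replicates 1 and 2, 24 h replicates 1 and 2 and 48 h replicate 1, respectively). At 48 h it passed only without 24 h replicate 1, and the others gave 0.0877, 0.0918, 0.0716, 0.119 and 0.0858 (unstimulated replicates 1 and 2, 24 h replicate 2 and 48 h replicates 1 and 2). With the slide as a block the 24 h change was -0.67 and did not pass. It was -0.67 within the slide of the other 5 arrays too. Because 24 h replicate 1 is alone on its slide, the block amounts to leaving it out, so these are not 2 separate checks.

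Ifngr2, the second chain of the interferon gamma receptor, which carries Jak2, was not lower. Its levels were 1.1 and 0.86 in unstimulated cells, 1.37 and 1.34 at 24 h, and 1.33 and 1.38 at 48 h. The stimulated arrays lay above the unstimulated ones, with a log2 fold change of 0.37 at 24 h (0.06 to 0.69, adjusted p = 0.112) and of 0.37 at 48 h (0.06 to 0.69, adjusted p = 0.114). The ratio of Ifngr1 to Ifngr2 within an array, which no scaling of the arrays changes, was therefore lower after stimulation. Relative to the mean of the unstimulated arrays (-0.12 and 0.12), its log2 was -1.14 and -1.03 at 24 h and -1.04 and -1.08 at 48 h. An exact permutation test of the 2 unstimulated against the 4 stimulated arrays, 2-sided, gave p = 0.0667, the smallest that its 15 arrangements allow. Ifngr1 was already lower and Ifngr2 higher on all 4 stimulated arrays, so the test only restates this separation and adds no support. The exact permutation test gave p = 0.0667 also for Jak2 to Jak1 and for Il10rb to Tmem50b, the latter genes described below. Jak2 and Il10rb were already higher on all 4 stimulated arrays, so these tests add no support either. For Ifnar2 to Ifnar1 the exact permutation test gave p = 0.267. The ratio of Ifngr1 to Ifngr2 was chosen after its values were seen.

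The chains of the interferon alpha and beta receptor stood higher after stimulation without passing the test. Ifnar2, the high-affinity chain, had levels of 1.28 and 1.34 in unstimulated cells, 1.83 and 2.18 at 24 h, and 1.84 and 2.14 at 48 h. All 4 stimulated arrays were above the unstimulated pair, and the log2 fold changes were 0.70 at 24 h (0.26 to 1.13, adjusted p = 0.0555) and 0.68 at 48 h (0.25 to 1.12, adjusted p = 0.0584), on the far side of the threshold. It passed in 6 of 21 alternatives at each time, quantile normalization and both forms of normexp correction among them. Ifnar1, the chain that carries Tyk2, stood at 0.06 and 0.04 without added CSF-1, at 0.55 and 0.50 after 24 h, and at 0.27 and 0.58 after 48 h. Here too the groups did not overlap, with changes of 0.47 (0.13 to 0.82, adjusted p = 0.0814) and 0.37 (0.03 to 0.72, adjusted p = 0.139).

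The 3 Ifnar1 probes did not give the same size of change. The 2 dimmer ones gave 0.09 and 0.14 at 24 h and 0.22 and 0.16 at 48 h, with adjusted p-values over all probes between 0.436 and 0.828. Their intervals at 24 h, -0.48 to 0.66 and -0.17 to 0.44, overlap that of the brightest probe. The probe with the long span had signals between 88.6 and 141, and its unstimulated arrays differed by 0.24 to either side of their mean, which is more than either of its changes.

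**Figure D3:**
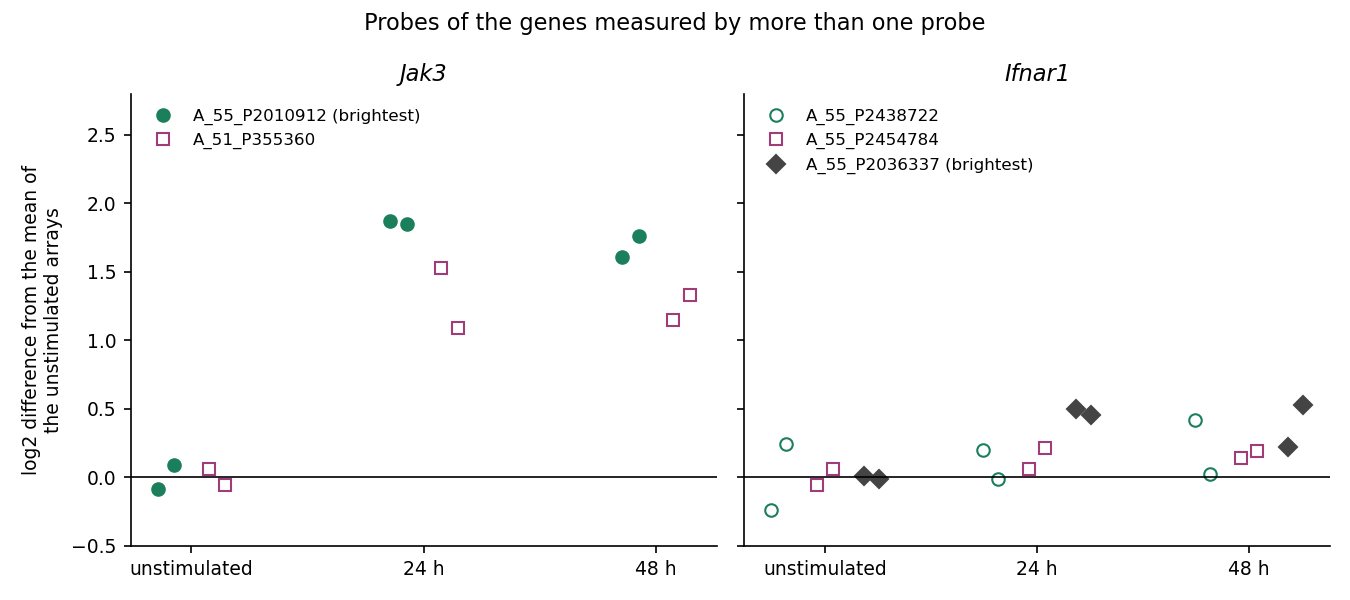
Log2 difference of each probe of Jak3 and Ifnar1 from its own mean over the unstimulated arrays, with 1 symbol per array and filled symbols for the brightest probe of the gene. Both Jak3 probes lie above 1 on all 4 stimulated arrays, whereas the Ifnar1 probes spread between -0.01 and 0.53 there.

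Ifnar2, Ifnar1 and Ifngr2 are neighbors. In RefSeq on build GRCm38.p6 they lie with Il10rb, a chain of the interleukin-10 and type III interferon receptors, in the order Ifnar2, Il10rb, Ifnar1, Ifngr2 within 191225 bases, at chr16:91372783-91564007, whereas Ifngr1 is on chromosome 10. Il10rb was the one gene of the 4 to pass. It stood at -2.38 and -2.12 in unstimulated cells, at -1.30 and -1.39 after 24 h and at -1.09 and -1.31 after 48 h, and rose by 0.91 (adjusted p = 0.019) and 1.05 (adjusted p = 0.0137) on the log2 scale. The call of Il10rb was lost at 24 h with the slide as a block (0.86, adjusted p = 0.0924) and with any array left out but 48 h replicate 2 (values between 0.78 and 1.03, adjusted p between 0.0563 and 0.0985). At 48 h it was lost without unstimulated replicate 1 (0.92, adjusted p = 0.0747) or 2 (1.18, adjusted p = 0.0554), 24 h replicate 2 (1.05, adjusted p = 0.0631) or 48 h replicate 1 (0.94, adjusted p = 0.103). Without the filter on dim probes the adjusted p was 0.063 and 0.0587. Whether it differed from its neighbors was not tested. All 4 genes of the cluster had positive values at both times. On the Ifngr2 side the next gene, Tmem50b, had 0.01 at both times (adjusted p = 0.978 and 0.973). Farther out, Gart, a purine synthesis enzyme, fell by 0.69 at 24 h (adjusted p = 0.0489) and had -0.65 at 48 h (adjusted p = 0.0565). Son had -0.30 and -0.16 and Donson -0.37 and -0.59, none past the threshold, and on the other side Olig2 had 0.09 and 0.36. In no group did Olig1 or Dnajc28 stand well above background on both arrays, so neither was tested.

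**Figure D4:**
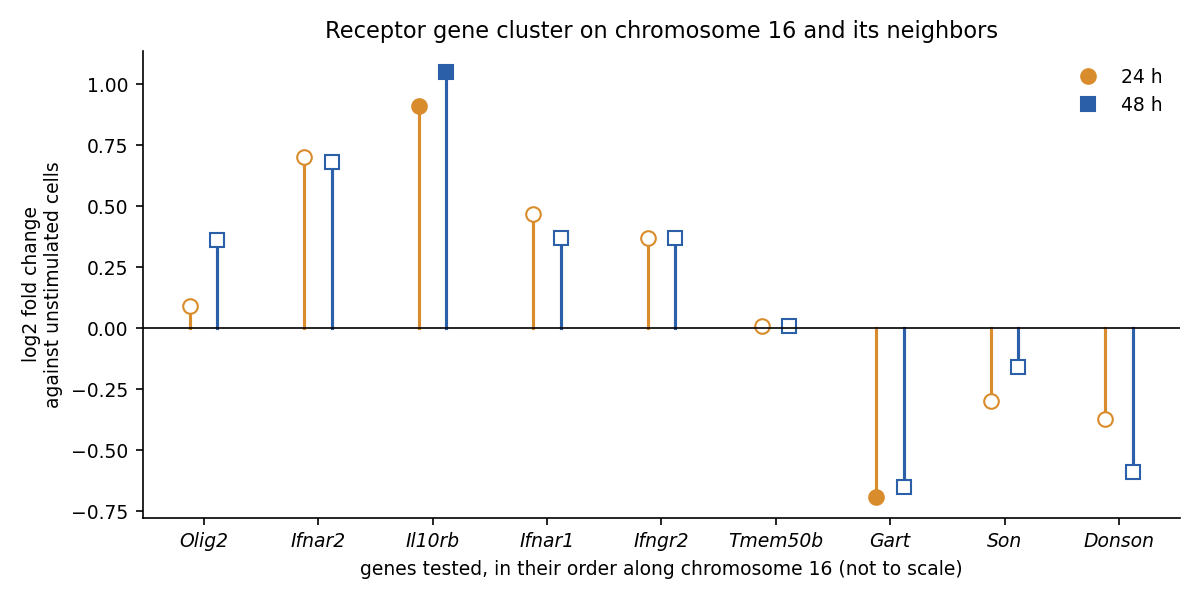
Log2 fold change at 24 h (circles) and 48 h (squares) of the genes tested in and around the receptor gene cluster of chromosome 16, in their order along the chromosome and not to scale. Filled symbols passed the test. Ifnar2, Il10rb, Ifnar1 and Ifngr2 lie between 0.37 and 1.05, Tmem50b at 0.01 and Gart, Son and Donson below 0.

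No gene of the set passed the test between 24 h and 48 h. With limma 0 of 8 passed after adjustment, as did 0 of the 24648 genes tested (0%), and at an unadjusted p under 0.05 only Jak1 passed (0.38 higher at 48 h, 95% interval 0.08 to 0.67, unadjusted p = 0.0221, adjusted p = 0.275), beside 13.6% of all genes. The t-test of the methods likewise gave 0 after adjustment and 1 before. For Jak3 the difference was -0.17 (-0.48 to 0.13), for Jak2 0.14 (-0.23 to 0.52), and for Ifngr1 0.03 (-0.23 to 0.28). With 2 arrays a group, differences of up to these bounds are not excluded.

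The windows around the start sites of the genes were read for the letters of both DNA elements. RefSeq promoter sequences of build GRCm38.p6, from 250 bases before to 50 after a start site, were found for all 8 genes. The GAS letters TTCNNNGAA, which read the same on both strands, occurred in 2 of the 8 windows, those of Ifnar1 and Ifnar2, and in 8.3% of all 32851 windows of the table. The ISRE core letters (GAAA, 2 bases of any kind, GAAA), searched on both strands, occurred in 0 of 8 and in 3.44% of all. The match in Ifnar2 starts 214 bases before the window's start site and that in Ifnar1 5 bases before it. The Ifnar1 window is set on a start site downstream of the first base of the gene's RefSeq span, chr16:91485032, so its match, at chr16:91485210-91485218, lies within that span. The sequences of the receptor genes with a match and of the 3 genes that passed the test are given from 250 bases before to 10 after the start site of the window, 5′ to 3′ on the strand of the gene, with GAS letters in capitals.
Ifnar2, chr16:91372533-91372792, plus strand: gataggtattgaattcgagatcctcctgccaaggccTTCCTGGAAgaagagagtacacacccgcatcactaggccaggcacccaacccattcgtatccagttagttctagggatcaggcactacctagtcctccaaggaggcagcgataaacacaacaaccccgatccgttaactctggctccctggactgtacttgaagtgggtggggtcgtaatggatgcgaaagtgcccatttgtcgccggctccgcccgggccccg
Ifnar1, chr16:91484965-91485224, plus strand: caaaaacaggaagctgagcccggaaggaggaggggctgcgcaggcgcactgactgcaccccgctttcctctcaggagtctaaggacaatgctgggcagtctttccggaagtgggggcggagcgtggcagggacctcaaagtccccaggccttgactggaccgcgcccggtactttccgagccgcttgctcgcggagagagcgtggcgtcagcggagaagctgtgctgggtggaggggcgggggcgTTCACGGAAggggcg
Ifngr1, chr10:19591699-19591958, plus strand: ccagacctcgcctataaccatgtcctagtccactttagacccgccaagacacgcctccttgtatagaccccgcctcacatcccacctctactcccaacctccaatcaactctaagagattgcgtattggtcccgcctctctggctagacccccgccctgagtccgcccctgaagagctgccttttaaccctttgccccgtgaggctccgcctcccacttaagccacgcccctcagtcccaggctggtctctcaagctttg
Jak2, chr19:29251553-29251812, plus strand: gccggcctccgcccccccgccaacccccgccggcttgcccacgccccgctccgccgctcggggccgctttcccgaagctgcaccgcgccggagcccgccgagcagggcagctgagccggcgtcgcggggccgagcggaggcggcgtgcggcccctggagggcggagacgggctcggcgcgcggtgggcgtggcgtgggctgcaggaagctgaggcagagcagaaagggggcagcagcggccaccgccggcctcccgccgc
Jak3, chr8:71676133-71676392, plus strand: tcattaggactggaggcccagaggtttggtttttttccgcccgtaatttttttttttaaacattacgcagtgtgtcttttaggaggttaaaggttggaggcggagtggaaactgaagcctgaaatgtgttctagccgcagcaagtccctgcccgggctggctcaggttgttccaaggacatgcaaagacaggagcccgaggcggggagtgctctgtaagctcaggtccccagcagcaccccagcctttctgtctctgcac
A match of letters is no evidence of a bound site. The 3 genes that passed the test had a match to neither motif in these windows, whose GC content was 81% for Jak2, 60.3% for Ifngr1 and 54.3% for Jak3.

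The ligands of these receptors were not among the changed genes. Of 15 interferon genes with a probe 11 were tested, and 0 passed with limma at either time (median log2 fold change 0.13 at 24 h and 0.00 at 48 h, over all genes 0.04 and -0.04), with 1 passing at 48 h when 48 h replicate 2 was left out. Ifnb1 and Ifna4 were not well above background on any array, and Ifng on 1 unstimulated array only. The interferon alpha genes are close copies, so that their probes may share signal. Of the type III interferon and interleukin-10 family receptor chains, Il10rb alone passed among 3 tested, with Il22ra1 at 0.90 (adjusted p = 0.0763) and 0.82 (adjusted p = 0.0947) and Il20rb at 0.00 and -0.15, while Il28ra, Il10ra and Il20ra were well above background on no array.

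Downstream of the kinases, 4 of 7 STAT and Irf9 genes rose at 24 h and 5 of 7 at 48 h. None passed downward, and the median was 1.35 and 1.04. Of all genes tested, 8.02% passed upward at 24 h and 6.58% at 48 h, and 5.99% and 7.38% downward. Fewer STAT and Irf9 genes passed at 24 h without 24 h replicate 2 and with the slide as a block. At 48 h fewer of them passed with any single array left out. Such fits leave a group with a single array, and fewer of all genes passed in them too. Stat2, a partner of Irf9 in the type I response, rose by 2.77 (adjusted p = 0.00235) and 3.54 (adjusted p = 0.00127), and Stat5a by 3.60 (adjusted p = 0.00176) and 2.39 (adjusted p = 0.00393). Among 19 inhibitors of JAK and interferon receptor signaling, 7 rose and 0 fell at each time, with a median of 0.14 and 0.09. Fewer inhibitors passed at 24 h without 24 h replicate 2 or unstimulated replicate 2, and with the slide as a block. At 48 h fewer inhibitors passed with any single array left out. In these fits, too, fewer of all genes passed. Usp18, which binds Ifnar2 and dampens the type I receptor, stood at the top with 6.66 (adjusted p = 0.00292) and 8.04 (adjusted p = 0.00152), followed by Socs3 with 3.74 and 2.91, both passing. These changes exceed those of any JAK or interferon receptor gene on the same log2 scale.

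Other receptor chains that use JAKs were mixed. Of 24 tested, 7 rose and 1 fell at 24 h, and 6 rose and 1 fell at 48 h, with a median of 0.27 and 0.25. Beside this list and the 2 that follow, 8.02% of all genes passed upward at 24 h and 6.58% at 48 h. Downward it was 5.99% and 7.38%. Fewer of the 24 passed at both times with any single array left out, and fewest at 24 h without 24 h replicate 2. Such fits leave a group with a single array, and fewer of all genes passed in them too. Il5ra, the interleukin-5 receptor chain, had the largest increase by mean over both times (5.93, adjusted p = 0.00818, and 6.12, adjusted p = 0.00739), and Il13ra1 rose by 3.90 (adjusted p = 0.00487) and 3.87 (adjusted p = 0.00456), with 1 of its unstimulated arrays well above background. Genes that respond to type I interferon rose in 17 of 20 cases at 24 h and 18 of 20 at 48 h (median 4.36 and 5.52), with Ifit3 at 6.14 and 7.52 and Oas1a at 5.56 and 7.64. Of the genes that respond to type II interferon, 9 of 16 rose at 24 h and 12 of 16 at 48 h (median 1.95 and 2.86), with Igtp at 5.38 and 7.04 and Gbp2 at 5.43 and 6.89. Those that passed at neither time were Ciita (0.72 and 0.41), Cd74 (0.54 and 0.30), H2-Ab1 and Cxcl9. Irf8, H2-Aa, H2-Eb1 and Icam1 of this list were too dim to be tested. Which kind of interferon, if any, these increases reflect was not tested. Beside the medians of the responsive genes, the median was 0.42 and 0.37 over the 4 receptor chains and 0.60 and 0.76 over the 4 kinases. At 24 h fewer type I and type II responsive genes passed without 24 h replicate 2. The same held with the slide as a block, which amounts to leaving out 24 h replicate 1. Fewer type II responsive genes passed at 24 h without unstimulated replicate 2, too. At 48 h the type II count was lower with any single array left out, and the type I count with some. Fewer of all genes passed in these fits as well. These lists are described by counts, without a test of a list.

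**Figure D5:**
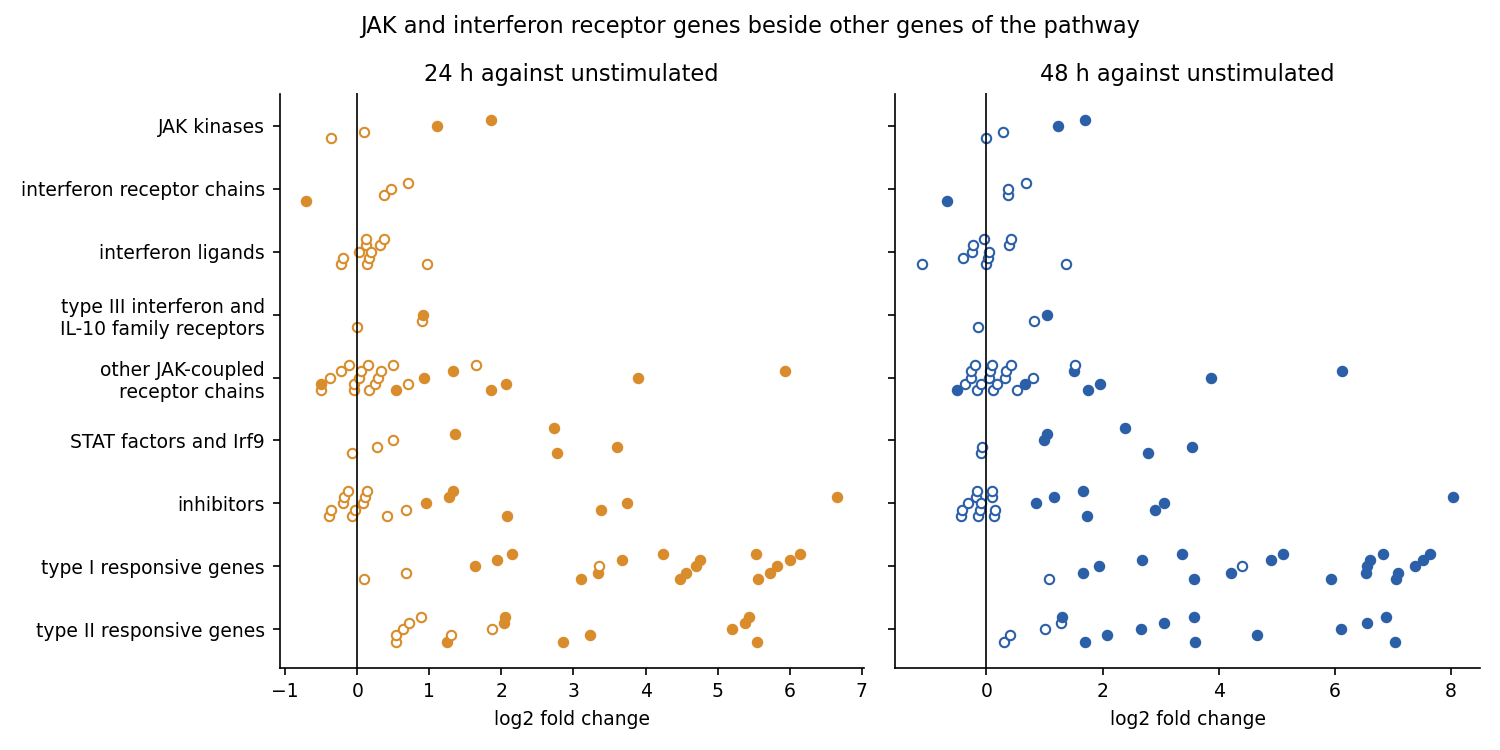
Log2 fold change of each tested gene, by list, at 24 h (left) and 48 h (right) against unstimulated cells, with filled symbols for genes past an adjusted p of 0.05. The kinase and receptor genes lie between -0.71 and 1.86, while the type I responsive genes reach 6.14 at 24 h and 7.64 at 48 h. Small vertical offsets only separate the points.

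For each gene the pathway gene with the closest changes was sought among 100 tested genes of the pathway lists. The measure was the root mean square difference of the changes over the 4 stimulated arrays, which reflects their size more than their course. Jak3 lay nearest to Il2rb, an interleukin-2 receptor chain (0.19), but Il2rb was well above background on no unstimulated array and on 1 of the 48 h arrays, so that its changes have no measured baseline. The next nearest, Socs2 (0.26), an inhibitor, was well above background on all arrays. Jak2 lay nearest to Stat3 (0.23) and Ifngr1 to Il11ra1 (0.20). From 24 h to 48 h, however, Jak2 went from 1.1 to 1.24 and Stat3 from 1.35 to 1.04. For Ifnar2 the nearest gene was Csf2rb2 (0.17), for Ifnar1 Cd74 (0.18), for Ifngr2 Ifna2 (0.10), for Tyk2 Ifna13 (0.12) and for Jak1 Pias2 (0.18). The unstimulated arrays of Csf2rb2, Cd74, Ifna2 and Ifna13 lay 0.55, 0.28, 0.23 and 0.25 to either side of their mean, more than the distances given. All distances are descriptions over 4 arrays that share their unstimulated baseline.

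Because Jak3 is best known from blood cells, markers of such cells are given beside it. Of 10 lymphocyte markers 5 were tested and 0 passed with limma at either time, and their signals, as a sum of linear signals relative to the 75th percentile of the array, lay between 12 and 14.0 in unstimulated cells, 13.2 and 14.0 at 24 h, and 13.0 and 13.6 at 48 h. Most of these sums came from Cd3e (levels 2.24 to 2.67) and Nkg7 (2.35 to 2.63), so the sums say little about the other lymphocyte markers. The markers Cd3g, Cd2 and Ms4a1 were well above background on no array. Of 16 markers of macrophages and other blood cells with a probe 8 were tested, and 3 rose at both times, Cd14, Cd53 and Mpeg1. Of all genes, 8.95% passed in the same direction at both times. Cd53, not well above background in unstimulated cells, was at least 17.3-fold higher at 24 h and at least 29-fold higher at 48 h, while Ptprc, which all white blood cells carry, had 0.68 (adjusted p = 0.0872) and 0.15 (adjusted p = 0.685). The linear signals of the 16, scaled by the 75th percentile of the same array, summed to between 43.9 and 49.4, 35.4 and 43.4, and 32.9 and 41.6 in the 3 groups. Most of this came from Itgam (21.1 to 42.2), which did not pass (-0.43, adjusted p = 0.264, and -0.65, adjusted p = 0.12), and without it the sums were 6.5 and 7.14, 9.34 and 10.0, and 11.3 and 11.8. Their part in the increase of Jak3 was not tested, and in bulk RNA fewer cells of a type and less RNA per cell cannot be told apart. Among the keratin markers of prostate epithelium, Krt5, Krt8, Krt18 and Krt19, Krt8 alone passed, upward at 48 h (1.98, adjusted p = 0.0106). Cdh1 was well above background on no array and Epcam on 1 of the 48 h arrays.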

How the data were processed

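RNA of 6 cultures was hybridized to single-color Agilent mouse 8x60K arrays. Per the methods, a service company ran the arrays for the authors, with Feature Extraction 11.0.1.1 per the file headers, and the deposited signal used here is a background-subtracted linear intensity, not normalized between arrays. The log2 values that the authors deposited for some of the probes, centred per probe and of unstated scaling, served as an alternative. The paper names the software of its comparisons, not its normalization.

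Outlier spots were left out (303 probes), each array's 75th percentile was subtracted from the log2 signal, the brightest probe stood for a gene, and 24648 of 36028 genes, those with both arrays of some group well above background, were tested with limma 3.58.1 (R 4.3.3, data.table version 1.17.8), 2-sided, with Benjamini-Hochberg adjustment over all of them and 6 arrays in 1 fit. The procedure was tested on simulated data. The number of arrays limits the precision. 15 processing alternatives were tried and each of 6 arrays was left out in turn.

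The members, lists and motifs were chosen with earlier results of these data known. All 8 members and, of each other list, the 2 genes with the largest mean change among those passing at both times in the same direction are named, besides all interleukin-10 family receptors and chromosome 16 neighbors. Marker genes are named from their fixed lists, and other genes only for their values beside a result. One marker gene is not reported here. All 8 members were found in RefSeq by symbol.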

Additional observations from a re-analysis of the deposited data

How the results depend on the processing

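The number of JAK and interferon receptor genes past the threshold was 3 at each time. At 24 h it was 5 with normexp background correction and the 75th percentile shift (18% of all genes passed there), 6 with normexp and quantile normalization (16%), 6 with an intensity trend in the prior spread (19.1%), and 0 with the methods' t-test. At 48 h it was 5 with normexp and quantile normalization (18.8%) and 0 with the methods' t-test. Leaving out 1 array at a time raised the number at neither time and lowered it in some cases. Fewer of all genes passed in each such fit, which leaves a group with a single array. The t-test gave 0 calls among all 24648 genes after adjustment, and 4 of the 8 genes at each time before it, beside 5403 and 5485 of all genes. Jak3 passed in 20 of 21 alternatives at each time, Jak2 in 17 at 24 h and 16 at 48 h, and Ifngr1 in 13 and 14. None of these 3 changed direction in any of them. Without the filter on dim probes, where 36028 genes were adjusted over, Ifngr1 had an adjusted p of 0.0569 at 24 h and 0.0729 at 48 h.

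Median centring moved the median of all genes from 0.04 to -0.25 at 24 h and from -0.04 to -0.14 at 48 h, and the share of upward calls from 57.2% to 24.4% and from 47.1% to 38.9%. Under it Jak1 fell by 0.66 at 24 h (adjusted p = 0.0369), Tyk2 had -0.18 there, and Jak2 and Jak3 still rose and Ifngr1 still fell at both times. With the slide as a block the 24 h changes were 1.85 for Jak3, 1.19 for Jak2 and -0.67 for Ifngr1, which did not pass. Within the slide of the other 5 arrays they were likewise 1.85, 1.19 and -0.67. The block amounts to leaving out 24 h replicate 1, alone on its slide, so these are not separate alternatives. With a replicate block 4 genes passed at each time, beside 15.4% and 16.1% of all genes. The fourth was Ifnar2 (adjusted p = 0.0346 and 0.0357 with limma). The numbers were not taken as pairs, since no label ties a number to an experiment and the correlations of replicate differences were 0.128, 0.094 and 0.199, not all above 0.1. None of the 8 genes passed between 24 h and 48 h under any alternative, under which between 0 and 316 of all genes did. Signal over background limits the dim probes, such as that of Jak3. The Jak3 log2 fold changes were 1.86 and 1.69 here, and 1.19 and 1.07 with normexp, its added 50 units and quantile normalization.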
